A study of Mus musculus with 28 samples.

Results

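Calcium pumps and calmodulin-dependent kinases were followed in the amygdala of drinking and non-drinking mice. The 10 genes were chosen by symbol and were *Atp2b1*, *Atp2b2*, *Atp2b3*, *Atp2b4* and *Atp2a2*, which encode calcium pumps, and *Camk4*, *Camk2b*, *Camk2g*, *Camk1d* and *Camkk2*, which encode kinases that respond to calcium and calmodulin. *Atp2b1* and *Camk4* were on the study's own list of genes called in these mice with DESeq2, at an adjusted p under 0.05. The study then linked these called genes to alcohol through association and disease databases. All 10 were present among the 49477 genes shared by both count tables, and all 10 were among the 16266 genes tested, whose mean reached 10 counts or more. Their mean counts ran from 917 for *Camk4* to 14871 for *Atp2a2*.

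RNA came from bilateral amygdala micropunches, which covered the basolateral and central nuclei, of 28 female C57BL6/J mice that had been bought at 7 weeks of age and housed singly. No transgene or deletion was involved, and all groups went through the same 28 days of a 2-bottle choice design before collection on day 29. The 10 Water mice had water only, the 9 Acute mice met 20% ethanol in 1 session on the last drinking day, and the 9 Chronic mice had 20% ethanol on alternate days. The mice came as 2 cohorts, called batches, each with all 3 groups: 4, 4 and 3 Water, Acute and Chronic mice in the first, and 6, 5 and 6 in the second. Totals ran from 20004380 to 22569562 counts per mouse. Neuronal markers were abundant, with a summed level of 3562 to 4232 CPM (counts scaled to the total of each library, adjusted by TMM normalization). Markers of central amygdala, striatum, glia, vessel and choroid plexus were all detected, with no listed marker at 0 in every mouse.

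A calcium signal in a neuron ends when calcium is pumped out of the cytosol. The plasma membrane calcium ATPases, encoded by the *Atp2b* genes, export calcium across the cell membrane and are activated by calmodulin. The sarco/endoplasmic reticulum pump encoded by *Atp2a2* returns calcium to the endoplasmic reticulum. While calcium is high, calmodulin activates the calmodulin kinases: CaMKII, built from subunits such as those encoded by *Camk2b* and *Camk2g*, is abundant at synapses and is best known for its part in synaptic plasticity, whereas CaMKK2 phosphorylates and so activates CaMKI (*Camk1d* is a member of that family) and CaMKIV. CaMKIV, encoded by *Camk4*, acts largely in the nucleus, where the transcription factor CREB is among its substrates.

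All 10 genes are protein-coding, and their places are given in GRCm38. Among the pumps, *Atp2b1* lies at chr10:98914406-99026143 on the plus strand, *Atp2b2* at chr6:113743831-114042613 on the minus strand, *Atp2b3* at chrX:73503086-73571005 on the plus strand, *Atp2b4* at chr1:133699457-133801041 on the minus strand and *Atp2a2* at chr5:122453513-122502225 on the minus strand. Among the kinases, *Camk2b* lies at chr11:5969644-6066362, *Camk2g* at chr14:20734875-20794088, *Camk1d* at chr2:5293457-5714515 and *Camkk2* at chr5:122731170-122779409, all 4 on the minus strand. By the median they are long genes with many transcripts. The median exon length was 8276 bases, against 4244 over all genes tested, and the median number of annotated transcripts was 8, against 4. *Camk4*, with 3259 exon bases, and *Atp2b3*, with 3 transcripts, were under these medians of all genes. Exon bases are shared with *Mir6903* on the same strand in *Atp2b4* and with *Gm43361* on the opposite strand in *Atp2a2*, so reads there could be split between genes.

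Promoter windows, from 250 bases before to 50 bases after a transcription start (RefSeq, GRCm38.p6), were found for 6 of the 10 genes. Those of *Atp2b1*, *Atp2b2* and *Camk2b* are shown because the transcript levels of these 3 genes varied together from mouse to mouse, as described further on. They were picked after that was seen, and for each gene the window farthest upstream is given, 5′ to 3′ on the gene's own strand. Capitals mark GC boxes (GGGCGG or its complement CCGCCC, overlapping matches included) and the 5-base core of the cAMP response element, at which CREB binds (TGACG or its complement CGTCA).
*Atp2b1* (chr10:98914392-98914691, plus strand): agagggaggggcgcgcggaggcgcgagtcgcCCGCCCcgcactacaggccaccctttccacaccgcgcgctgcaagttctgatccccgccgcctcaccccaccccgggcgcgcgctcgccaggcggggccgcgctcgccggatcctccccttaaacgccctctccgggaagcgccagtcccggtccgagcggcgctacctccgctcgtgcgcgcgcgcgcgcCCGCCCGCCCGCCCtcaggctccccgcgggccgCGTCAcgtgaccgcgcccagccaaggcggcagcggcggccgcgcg
*Atp2b2* (chr6:114042031-114042330, minus strand): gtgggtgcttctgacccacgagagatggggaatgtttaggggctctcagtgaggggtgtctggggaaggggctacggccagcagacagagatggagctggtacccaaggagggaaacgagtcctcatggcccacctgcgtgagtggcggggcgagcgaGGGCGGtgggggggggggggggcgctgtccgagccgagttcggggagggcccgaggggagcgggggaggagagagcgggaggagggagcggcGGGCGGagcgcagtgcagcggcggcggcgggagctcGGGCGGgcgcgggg
*Camk2b* (chr11:6065699-6065998, minus strand): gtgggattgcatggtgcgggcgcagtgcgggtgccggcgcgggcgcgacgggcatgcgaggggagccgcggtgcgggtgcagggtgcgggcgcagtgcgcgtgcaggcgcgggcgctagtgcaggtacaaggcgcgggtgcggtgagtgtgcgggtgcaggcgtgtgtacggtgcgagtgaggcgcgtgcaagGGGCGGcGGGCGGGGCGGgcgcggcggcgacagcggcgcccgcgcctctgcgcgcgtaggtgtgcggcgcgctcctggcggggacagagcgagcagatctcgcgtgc
The 3 windows had 79.3%, 72.7% and 77.3% G and C, against a median of 52.7% over all 32851 promoter windows. They held 4, 3 and 3 GC boxes, a motif present in 35.7% of all windows. Over all 10 windows of the 6 genes, G and C ran from 47.7% to 79.3% and GC boxes from 0 to 4. Within these 3 windows the core was found once, in that of *Atp2b1*, and occurs in 20.8% of all windows. The full element TGACGTCA, present in 1.79% of all windows, was in none of the windows of the 6 genes, and neither was the TATA box (TATAAA or TTTATA), present in 13.6%. These matches describe letters in the windows shown and say nothing of binding.

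In Water mice the calcium pump of the endoplasmic reticulum was the highest of the 10 transcripts per kilobase of exon. *Atp2a2* stood at 111 ± 5.87 CPM per kb (SD, n = 4) among the first cohort and at 125 ± 7.20 (SD, n = 6) among the second. *Camk2b*, the beta subunit of CaMKII, followed with 70.6 ± 5.61 and 77.8 ± 5.72 CPM per kb. Among the plasma membrane pumps the order was *Atp2b4* (45.4 ± 4.25 and 47.2 ± 2.80 CPM per kb), *Atp2b1* (35.6 ± 4.84 and 36.5 ± 3.30), *Atp2b2* (29.5 ± 6.31 and 33.8 ± 4.11) and *Atp2b3* (24.5 ± 3.20 and 22.6 ± 2.76). All 4 isoforms were thus clearly measured, within a range of about 2-fold per kilobase of exon (46.5 against 23.3 CPM per kb over both batches). Per kilobase of coding sequence the range was wider, with 141 for *Atp2b4* against 28.8 for *Atp2b3*.

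Among the other kinases *Camk1d* stood at 31.4 ± 1.41 and 31.0 ± 2.37 CPM per kb for the same cohorts in turn, *Camk2g* at 21.1 ± 1.05 and 22.3 ± 1.48, *Camk4* at 13.7 ± 1.63 and 15.4 ± 1.61, and *Camkk2* at 12.6 ± 0.432 and 13.4 ± 1.55. Not every step of this order exceeded the spread between mice. The ranges of the 10 Water mice overlapped between *Atp2b1* and *Atp2b2*, between *Atp2b2* and *Camk1d*, between *Atp2b3* and *Camk2g* and between *Camk4* and *Camkk2*. In the remaining 5 steps every Water mouse had the higher gene above every value of the lower one. Exon length joins all annotated transcripts, and per kilobase of coding sequence *Camk2b* led with 336 CPM per kb, ahead of *Atp2a2* with 231 and *Camk1d* with 189, while *Atp2b3* became the lowest with 28.8.

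**Figure D1:**
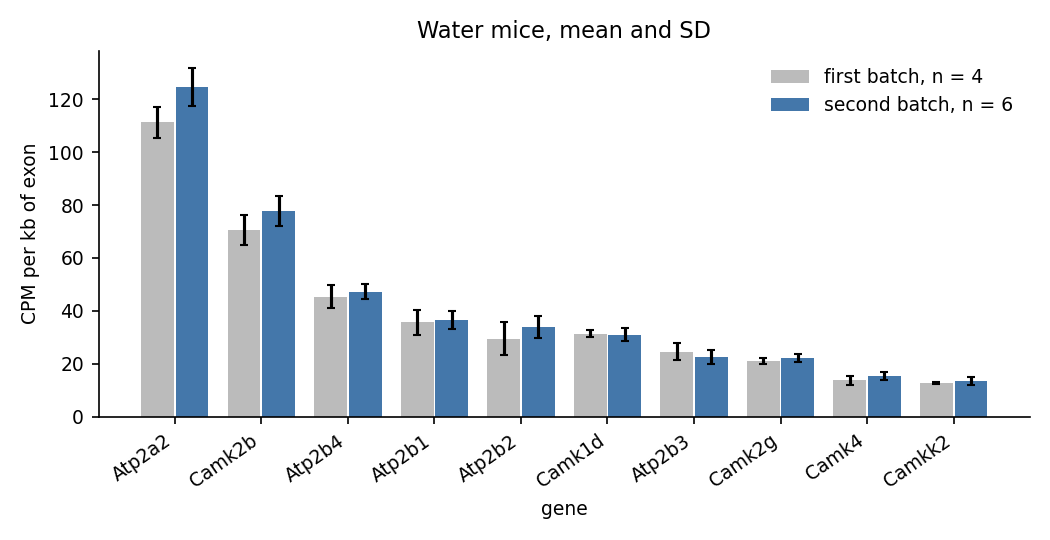
Level of each gene in Water mice, in CPM per kb of exon, as mean and SD for the first batch (grey, 4 mice) and the second (blue, 6 mice). *Atp2a2* and *Camk2b* stand above the rest, and the remaining 8 genes lie between 12.6 and 47.2 CPM per kb.

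The first question was whether a single day of drinking, or 4 weeks of it, moved these transcripts away from the Water level. Values for each mouse are given as CPM with the difference between batches removed, fold changes are log2 values from the quasi-likelihood test of edgeR, in which batch was a covariate, and a gene is called when its p after Benjamini-Hochberg adjustment over the 16266 genes is under 0.05. Against Water no gene of the 10 was called in the Acute mice, where 0% of all genes tested were called, and none in the Chronic mice, where 0.0184% were. At an unadjusted p under 0.05 stood *Camk2g* and *Camk4* in the Acute mice (2 of 10, against 9.52% of all genes) and *Atp2b1*, *Camk4* and *Camk2g* in the Chronic mice (3 of 10, against 10.5%). The 10 genes are too few, and were chosen with earlier results known, for these shares to be set apart from the background. The same Water mice stand in both comparisons, which are therefore not independent.

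*Atp2b1*, which encodes a plasma membrane calcium pump found in most cell types, had its lowest level in the Chronic mice, a difference that did not pass the adjusted test. In the 10 Water mice its level ran from 460 to 615 CPM with a median of 576. In the 9 Acute mice it ran from 459 to 560 with a median of 519. In the 9 Chronic mice it ran from 432 to 512 with a median of 475. All 9 Chronic mice and 8 of the 9 Acute mice lay below the geometric mean of the Water mice, the mean used for such counts throughout. The groups overlapped all the same, because 3 Water mice (numbers 42 and 43 of the first batch and 5 of the second, at 460, 489 and 461 CPM) sat among the Chronic values, while the other 7 were at 556 or more.

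The fitted log2 fold change of *Atp2b1* was -0.21 (SE 0.053) in Chronic against Water, with an edgeR adjusted p of 0.181 and an unadjusted p of 0.000471. In Acute against Water it was -0.10 (SE 0.053, edgeR adjusted p = 0.543). An exact two-sided permutation test of log2 CPM within batches gave p = 0.00557 for Chronic and p = 0.140 for Acute, not adjusted over the genes. The difference ran the same way in both cohorts, at -0.14 (first batch) and -0.24 (second) for Chronic and at -0.03 and -0.15 for Acute. Chronic and Acute mice differed by -0.11 (SE 0.054), which reached p = 0.0355 in the exact permutation test and an adjusted p of 0.998 in edgeR; without 1 mouse each, the exact p ran from 0.0128 to 0.0690 and was under 0.05 in 8 of 18 cases. With offsets for GC content and transcript length the value against Water was -0.14 in Chronic and -0.05 in Acute mice.

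*Camk4*, the nuclear kinase upstream of CREB, had a profile like that of *Atp2b1*. The gene lies at chr18:32934931-33191228 on the plus strand in GRCm38 and shares exon bases with *2310026I22Rik* on the opposite strand. Its level ran from 40.8 to 56.3 CPM (median 49.3) in Water mice, from 39.6 to 47.8 (median 43.3) in Acute mice and from 33.7 to 44.8 (median 41.3) in Chronic mice. Every one of the 18 drinking mice lay below the mean of the Water mice, although the ranges overlapped. The lowest of all was Chronic mouse 1 of the second batch, and the lowest Water mice were again numbers 5 and 42.

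For *Camk4* the log2 fold change was -0.22 (SE 0.055) in Chronic against Water, with an edgeR adjusted p of 0.181 and an unadjusted p of 0.000398, and -0.14 (SE 0.055) in Acute against Water, with an adjusted p of 0.467. The exact permutation test gave p = 0.00436 and p = 0.0366. Without 1 mouse each, the Acute p ran from 0.00930 to 0.0721 and was under 0.05 in 8 of 19 cases. The value was below 0 in both batches in either comparison, at -0.16 and -0.25 for Chronic and at -0.10 and -0.16 for Acute. Chronic and Acute mice differed by -0.08 (SE 0.056, exact permutation p = 0.122), which is within the spread between mice.

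*Camk2g*, the gamma subunit of CaMKII, which is also made outside neurons, was the only one of the 10 with a higher value than Water in the Chronic mice. Water mice ran from 127 to 151 CPM (median 141), Acute mice from 144 to 161 (median 155) and Chronic mice from 140 to 169 (median 153). All 9 Acute and all 9 Chronic mice lay above the geometric mean of the Water mice, the lowest Chronic mouse only just (140 against 139 CPM). The ranges still overlapped, since the lowest drinking mice, at 144 and 140 CPM, lay under the highest Water mouse at 151.

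The log2 fold change of *Camk2g* was 0.14 (SE 0.037) in Acute against Water, with an edgeR adjusted p of 0.344 and an unadjusted p of 0.000953, and 0.13 (SE 0.037) in Chronic against Water, with an adjusted p of 0.222. The exact permutation p-values were 0.000649 and 0.00853. It was higher in both cohorts, by 0.16 and 0.12 in the Acute mice and by 0.20 and 0.09 in the Chronic mice. Acute and Chronic mice differed by -0.0077 (SE 0.038), a difference smaller than its error. The edgeR adjusted p in that comparison was 0.999.

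**Figure D2:**
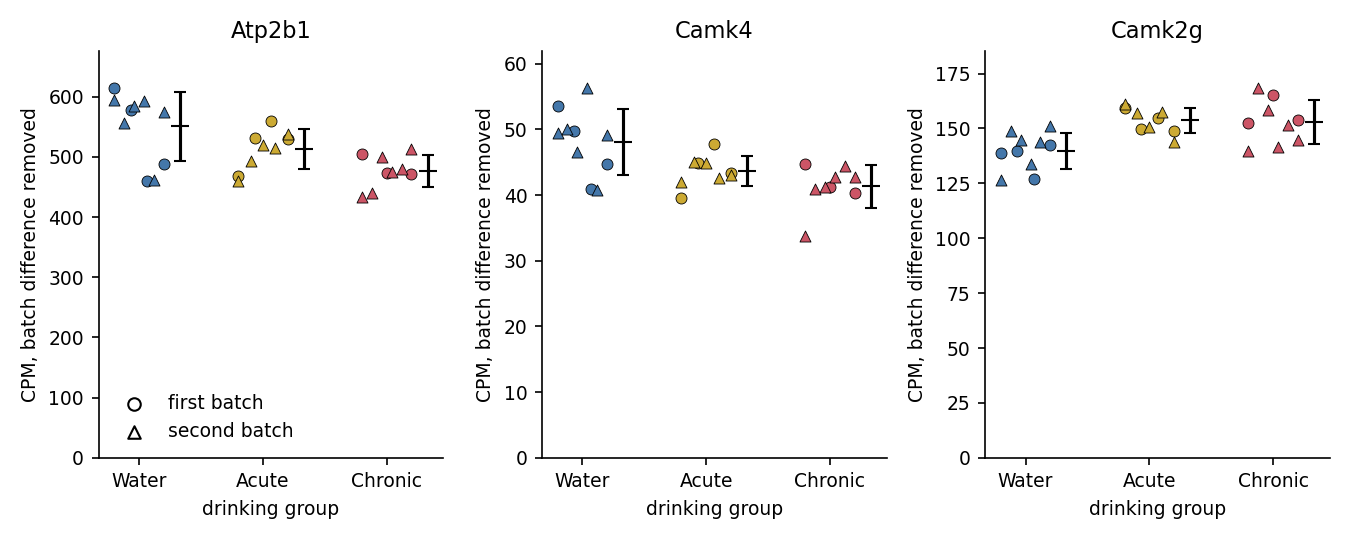
CPM with the batch difference removed for *Atp2b1*, *Camk4* and *Camk2g* in each mouse of the first (circles) and second batch (triangles), with the group mean and SD as a black bar. *Atp2b1* and *Camk4* lie lower and *Camk2g* higher in the drinking groups, with overlap of the groups in every panel and 3 Water mice low in *Atp2b1*.

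Which of these values count as called depended on the test. With DESeq2 and batch as a covariate, *Atp2b1* and *Camk4* were called in Chronic against Water (DESeq2 adjusted p = 0.0423 for each), where 0.234% of all genes were. DESeq2 gave an adjusted p to 8696 of the 16263 genes in that share, whereas edgeR adjusted over all 16266. With ComBat-seq followed by DESeq2, the route of the study's methods, *Atp2b1* and *Camk4* (DESeq2 adjusted p = 0.0242 each) and *Camk2g* (DESeq2 adjusted p = 0.0332) were called, against 0.54% of all genes. Of the 16293 genes in that share, 8396 had an adjusted p. By this route the study had already called *Atp2b1* and *Camk4* in these mice. Its supplement lists *Camk2g* among its differentially expressed genes. The calls of these genes therefore come from the same data and are no separate support. The fold changes themselves hardly moved, at -0.21 and -0.22 for *Atp2b1*, -0.22 for *Camk4* in each, and 0.13 and 0.14 for *Camk2g*. Leaving out any 1 mouse kept the edgeR adjusted p between 0.0691 and 0.378 for *Atp2b1* and between 0.0698 and 0.378 for *Camk4* in Chronic against Water.

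The other plasma membrane pumps lay closer to Water than *Atp2b1* in the Chronic mice, but in the Acute mice *Atp2b3* had a value as low as that of *Atp2b1*. *Atp2b2*, which is prominent in cerebellar and sensory cells, ran from 308 to 467 CPM (median 413) in Water, from 370 to 446 (median 404) in Acute mice, and 316 to 421 (median 370) in Chronic mice. *Atp2b3*, a largely neuronal isoform, ran from 94.0 to 132 CPM (median 112), from 91.0 to 122 (median 104) and from 96.7 to 118 (median 112). *Atp2b4* ran from 505 to 667 CPM (median 567), from 483 to 584 (median 530) and from 473 to 630 (median 530). In all 3 the Water mice covered most of the range of both drinking groups. The log2 fold changes in Acute and Chronic mice were 0.00089 and -0.10 for *Atp2b2* (SE 0.071 in each), -0.11 and -0.06 for *Atp2b3* (SE 0.063 in each) and -0.08 and -0.05 for *Atp2b4* (SE 0.050 in each), with edgeR adjusted p of 0.584 or more.

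*Atp2a2* was the steadiest of the pumps between mice, with an SD of 3.08% of the mean in Acute, 3.86% in Chronic and 5.29% in Water mice. It ran from 654 to 768 CPM (median 733) in Water, from 689 to 763 (median 731) in Acute mice, and 644 to 738 (median 705) in Chronic mice. The log2 fold change was 0.02 (SE 0.031) in Acute and -0.05 (SE 0.031) in Chronic mice against Water. Between Chronic and Acute mice the difference was -0.06 (SE 0.031), with 8 of 9 Chronic mice below the Acute mean. The unadjusted edgeR p of that *Atp2a2* difference was 0.0498 (adjusted p = 0.998), and it was 0.0624 with RLE and 0.0588 with upper quartile normalization. The exact permutation p was 0.0205.

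For the remaining kinases most drinking mice lay within the range of the Water mice. *Camk2b* ran from 606 to 748 CPM (median 690) in Water, from 616 to 735 (median 688) in Acute mice, and 641 to 732 (median 662) in Chronic mice, with log2 fold changes of 0.0021 (SE 0.039) and -0.03 (SE 0.039). *Camk1d* ran from 213 to 256 CPM (median 230), from 203 to 239 (median 228) and from 186 to 251 (median 219), with -0.04 (SE 0.048) and -0.09 (SE 0.048), and 2 of 9 Acute and 4 of 9 Chronic mice lay below the lowest Water mouse. *Camkk2*, the kinase that activates CaMKI and CaMKIV, ran from 118 to 167 CPM (median 142), from 112 to 153 (median 141) and from 133 to 146 (median 141), with -0.04 and -0.03 (SE 0.049 in each), and 1 Acute mouse, number 33, lay below the lowest Water mouse. Without that mouse the Acute value of *Camkk2* was -0.0027, and without Water mouse 3 the Chronic value was -0.00080. Their edgeR adjusted p was 0.518 or more.

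Read over the 10 genes, 6 had a lower and 4 a higher value than Water in the Acute mice, with a median log2 fold change of -0.039 (median over all genes tested 0.0011), and 9 had a lower and 1 a higher value in the Chronic mice, with a median of -0.059 (all genes 0.0022). For all genes 49.4% and 49.0% were lower. Since several of the genes varied together from mouse to mouse, these counts do not stand for 10 independent genes. Between Chronic and Acute mice, where 0% of all genes were called, none of the 10 was called and 1, *Atp2a2*, had an unadjusted edgeR p under 0.05, against 4.44% of all genes. Under the exact permutation test 2 of the 10 genes had a p under 0.05 in Acute against Water (9.57% of all genes), 3 in Chronic against Water (9.36%) and 2 in Chronic against Acute (4.86%). The fold changes between Chronic and Acute mice ran from -0.11 for *Atp2b1* to 0.05 for *Atp2b3*.

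**Figure D3:**
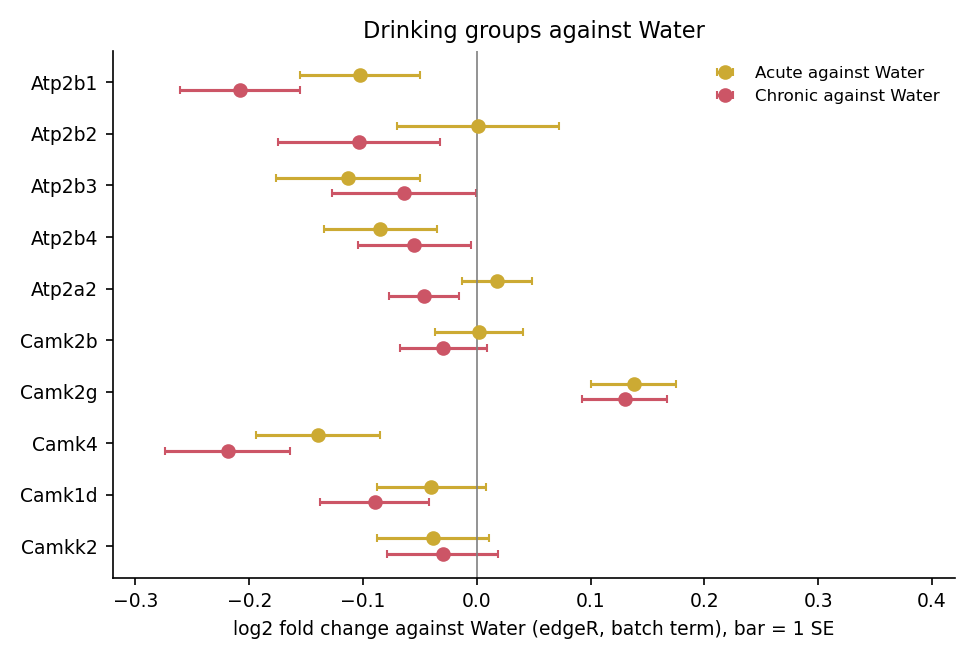
Log2 fold change against Water of the 10 genes in Acute (yellow) and Chronic mice (red) from edgeR with batch as a covariate, with bars of 1 SE. *Camk2g* lies to the right at 0.14 and 0.13, *Atp2b1* and *Camk4* lie farthest to the left in Chronic mice at -0.21 and -0.22, and no gene was called.

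The cohorts were also set against each other. The interaction of batch and drinking was called for none of the 10 genes in the Acute comparison, where 0% of all genes were called, and for none in the Chronic comparison, where 0.00615% were. In the Acute comparison the difference between cohorts ran from -0.12 (*Atp2b1*, SE 0.108) to 0.13 (*Atp2b3*, SE 0.123). In the Chronic comparison it ran from -0.14 (*Atp2b3*, SE 0.126) to 0.09 (*Atp2b4*, SE 0.104). The direction was the same in both cohorts for 8 of the 10 genes in Acute and for 9 in Chronic mice. The SE of these differences ran from 0.063 to 0.151, so a difference between cohorts as large as the fold changes themselves could not be told from 0.

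The levels of several of the genes varied together within the groups. With batch and group means removed over the 28 mice, the highest correlation among the 45 pairs was r = 0.86 between *Atp2b1* and *Atp2a2*, followed by 0.82 between *Atp2b1* and *Camk4* and 0.81 between *Atp2b1* and *Atp2b2*. *Camk2b* joined them, at 0.79 with *Atp2b2* and 0.73 with *Atp2b1*, and *Camkk2* was closest to *Camk2b* at 0.75. The genes of the 3 promoter windows printed above, *Atp2b1*, *Atp2b2* and *Camk2b*, are thus 3 members of this block. Each of these values was 0.62 or more within either batch. *Camk4* stood at r = 0.78 with *Atp2a2* (0.75 in the second batch), and was less closely tied to *Atp2b2*, at 0.63 (0.49 in the second batch), and to *Camk2b*, at 0.50 (0.26).

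Other members stood outside the block or opposite to it. *Atp2b3* ran against *Atp2b2* and *Camk2b*, at r = -0.64 with each, and *Camk2g* ran against *Camk1d* at -0.54. *Atp2b4* was not closely tied to any member, with its highest r at 0.35 with *Camk1d*. Over all pairs the median was 0.20 and 31 of 45 were positive. The pairs share mice, libraries and tissue samples, and the correlations are a description.

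**Figure D4:**
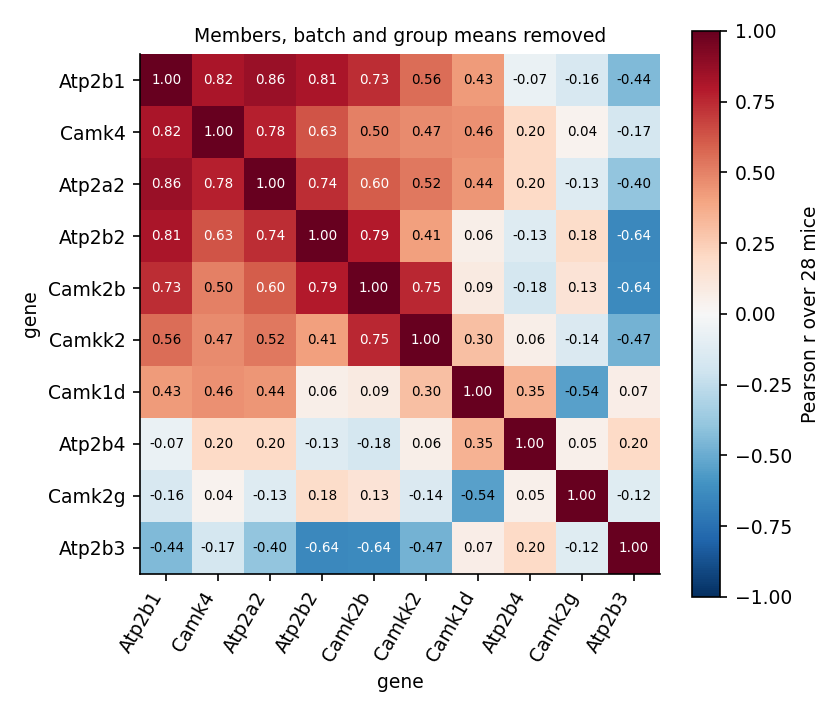
Pearson r between the 10 genes over 28 mice, on log2 CPM with batch and group means removed, from -1 (blue) to 1 (red). *Atp2b1*, *Camk4*, *Atp2a2*, *Atp2b2* and *Camk2b* form a red block, palest between *Camk4* and *Camk2b* (r = 0.50), and *Atp2b3* is blue against *Atp2b2* and *Camk2b*.

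Among the 11723 genes whose mean reached 100 counts, those whose levels were most like *Atp2b1* over the 28 mice (batch means removed) were *Ppp1r9a* (r = 0.96), *Rgs7bp* (0.94), *Ano3* (0.92), *Osbpl8* (0.92) and *Akap5* (0.91). Those most like *Camk4* were *Ppp1r9a* (0.91), *Atp2b1* itself (0.88), *Osbpl8* (0.86), *Grm5* (0.86) and *Opa1* (0.84). *Ppp1r9a* encodes neurabin, an actin-binding scaffold of dendritic spines, *Akap5* a postsynaptic anchor of kinases and phosphatases, and *Grm5* a metabotropic glutamate receptor. With group means removed as well, 4 of the 5 names remained for *Atp2b1* but only 1, *Ppp1r9a*, for *Camk4*.

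The level of *Atp2b1* also followed markers of the striatum, which borders the punched region. The mean log2 CPM of 5 striatal genes (*Drd1*, *Drd2*, *Adora2a*, *Ppp1r1b* and *Rgs9*) correlated with *Atp2b1* over 28 mice with Pearson r = 0.73 and Spearman rho = 0.77, each at a permutation p of 1e-05, the smallest that 100000 resamples can give (adjusted over 36 relations of 3 genes with 12 marker lists, 0.00036). Within batches r was 0.72 (first) and 0.76 (second), and it was 0.77 without the 2 mice farthest from the median. *Atp2b1* also followed 4 microglial markers, with Pearson r = 0.53 (permutation p = 0.00523, adjusted 0.0575) and Spearman rho = 0.56 (permutation p = 0.00312, adjusted 0.0374), with r = 0.44 and 0.58 within the batches and 0.43 without the 2 farthest mice. The 3 Water mice low in *Atp2b1* were also the 3 lowest Water mice in the striatal markers.

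The summed level of the striatal markers ran from 224 to 835 CPM (median 578) in Water, from 309 to 734 (median 545) in Acute mice, and 254 to 652 (median 392) in Chronic mice. Their mean log2 level differed by -0.25 in Chronic against Water (exact permutation p = 0.422) by 0.17 in Acute against Water (exact permutation p = 0.557) and by -0.39 in Chronic against Acute (exact permutation p = 0.0550). With the striatal level as a covariate, *Atp2b1* stood at -0.16 (SE 0.034, edgeR adjusted p = 0.0936) in Chronic against Water and at -0.12 (SE 0.033, edgeR adjusted p = 0.295) in Acute against Water, so the value came closer to 0 in Chronic and moved farther from 0 in Acute mice, and both SE narrowed. The unadjusted edgeR p of the Acute value went from 0.0617 to 0.000836. The covariate was chosen after the data were seen, so this smaller p is a description and not a test planned beforehand. Between Chronic and Acute mice the value of *Atp2b1* went from -0.11 to -0.04 with that covariate. *Atp2b2* went from -0.10 to -0.03 in Chronic and from 0.00089 to -0.03 in Acute mice against Water, and *Camk2b* from -0.03 to -0.0030 in Chronic mice. *Atp2a2* went from -0.06 to -0.04 between Chronic and Acute mice, and its unadjusted edgeR p from 0.0498 to 0.178. In tissue samples, a change in the mix of cells and a change of RNA per cell cannot be told apart.

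**Figure D5:**
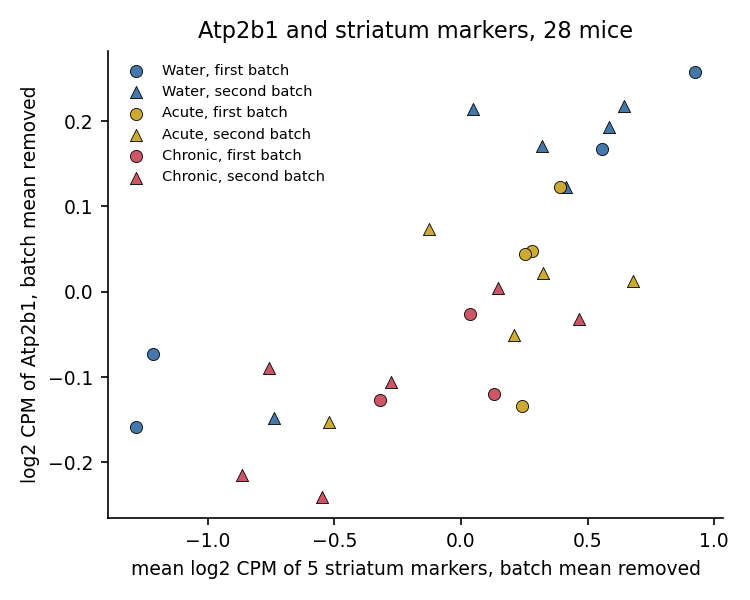
Log2 CPM of *Atp2b1* against the mean log2 CPM of 5 striatal markers in each of the 28 mice, both with the batch mean removed, coloured by group with a marker for each batch. Mice with a higher level of these 5 markers have more *Atp2b1* (Pearson r = 0.73), and 3 Water mice lie at the lower left.

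*Camk4* followed the same markers less closely, with Pearson r = 0.50 (permutation p = 0.00596, adjusted 0.0575) and Spearman rho = 0.58 (permutation p = 0.00192, adjusted 0.0346), with r = 0.54 and 0.49 within the batches and 0.55 without the 2 farthest mice. With the striatal covariate it stood at -0.19 (SE 0.048, edgeR adjusted p = 0.190) in Chronic and -0.16 (SE 0.047, edgeR adjusted p = 0.323) in Acute mice. *Camk2g* did not follow striatal markers (Pearson r = 0.06, Spearman rho = -0.01, permutation p = 0.769 and 0.958, r = 0.38 and -0.22 within the batches and -0.25 without the 2 farthest mice). Its closest list was that of 6 oligodendrocyte genes, with Pearson r = 0.51 (permutation p = 0.00639, adjusted 0.0575) and Spearman rho = 0.53 (permutation p = 0.00506, adjusted 0.0455), with r = 0.69 in the first and 0.36 in the second batch and 0.50 without the 2 farthest mice. The inhibitory neuron list came close, with Pearson r = 0.48 (permutation p = 0.0123, adjusted 0.0886) and Spearman rho = 0.48 (permutation p = 0.0113, adjusted 0.0814). For that list r was 0.65 and 0.32 within the batches and 0.47 without the 2 farthest mice.

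With the oligodendrocyte covariate *Camk2g* remained at 0.12 (SE 0.033) in both comparisons, with edgeR adjusted p of 0.355 in Acute and 0.153 in Chronic mice. The oligodendrocyte sum ran from 1165 to 3123 CPM in Water mice, 1513 to 3125 in the Acute group and 1689 to 3022 in the Chronic group. Over 12 lists and 3 comparisons, 1 of 36 group differences in marker level had an exact permutation p under 0.05 (central amygdala in Acute against Water, 0.28, p = 0.0465) and none after adjustment (smallest 0.990). With the central amygdala markers as a covariate *Atp2b4* in Acute mice went from -0.08 to -0.02 (SE 0.040). Choroid plexus markers varied most of all, from 12.3 to 4238 CPM over all mice, and with them as a covariate the Chronic values were -0.22 for *Atp2b1*, -0.23 for *Camk4* and 0.13 for *Camk2g*.

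The wider calcium machinery was read from 9 lists of 64 other genes, of which 61 passed the filter. None was called in any comparison. At an unadjusted edgeR p under 0.05 stood 3 higher and 4 lower genes in the Acute mice and 3 higher and 4 lower in the Chronic mice, out of 61 each, a share near that of all genes tested (9.52% in Acute and 10.5% in Chronic mice). Between Chronic and Acute mice 2 of the 61 were lower at that p and none higher (4.44% of all genes in either direction). Other calmodulin kinases and their inhibitors had a median of 0.017 in Acute and 0.038 in Chronic mice. *Camk2n2*, an inhibitor of CaMKII, had the smallest p in Chronic mice at 0.27 (SE 0.073, edgeR adjusted p = 0.210), with *Camk1* at 0.11 (SE 0.049, edgeR adjusted p = 0.439). In Acute mice *Camk1g* had the smallest p, at 0.12 (SE 0.055, edgeR adjusted p = 0.502).

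In the list of sodium-calcium exchangers of the plasma membrane and of organelles, 6 of 8 genes were lower in Acute mice with a median of -0.17, and 3 of them, *Slc24a4* (-0.18), *Slc24a2* (-0.19) and *Slc8a1* (-0.21), had an unadjusted edgeR p under 0.05 (9.52% of all genes had), with adjusted p of 0.430, 0.430 and 0.469. In Chronic mice 6 of 8 were lower with a median of -0.05, and between Chronic and Acute mice all 8 had a positive value (median 0.06), with no unadjusted p under 0.05 in either comparison. Of 11 genes of store release and store entry, 6 were lower in Acute and 8 in Chronic mice. *Ryr2*, a release channel, stood at -0.22 in Acute and -0.20 in Chronic mice (edgeR adjusted p = 0.477 and 0.442), and *Itpr1*, the neuronal inositol trisphosphate receptor, at -0.24 in Chronic mice (edgeR adjusted p = 0.410). *Itpr3*, another receptor of that family, stood at 0.16 in Acute and -0.16 in Chronic mice against Water, and at -0.32 (SE 0.095, edgeR adjusted p = 0.998) between Chronic and Acute mice. Of the calmodulin binders, *Gap43* stood at 0.11 and 0.12 (edgeR adjusted p = 0.407 and 0.241).

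The 3 calmodulin genes and their binders had a median of 0.0074 in Acute and 0.023 in Chronic mice. Among other calcium pumps *Atp2c1*, the pump of the Golgi, stood at -0.08 in Chronic mice (SE 0.032, edgeR adjusted p = 0.350). *Ppp3ca*, the catalytic subunit of calcineurin, the phosphatase that calmodulin activates, stood at -0.14 in Chronic mice (SE 0.051, edgeR adjusted p = 0.296) and at -0.12 between Chronic and Acute mice (SE 0.053, edgeR adjusted p = 0.998). Pump partners and regulators (5 tested), mitochondrial uptake (6) and calcium buffers (3) had medians of 0.019, 0.030 and -0.045 in Acute and of 0.054, 0.023 and 0.19 in Chronic mice. In these 3 lists *Tmem65* (0.11, edgeR adjusted p = 0.413) had an unadjusted p under 0.05 in Acute mice, and no gene had in Chronic mice.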

How the data were processed

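RNA of amygdala micropunches was sequenced as 100 bp paired-end reads on BGISEQ-500. The authors quantified reads with Salmon 0.14.1 (after FastQC 0.11.8) against a GRCm38/mm10 transcriptome, summarized them with tximport on GENCODE M21, and deposited estimated counts as whole numbers, 1 table per batch, before their ComBat-seq step; strand settings are not given in the sources used here. Tables were joined by gene identifier, and 49477 shared genes were cut to 16266 with a mean of at least 10 counts. Groups and batches came from the sample labels. The main test was edgeR 4.0.16 (quasi-likelihood, TMM, batch and group, 28 mice, R 4.3.3), Benjamini-Hochberg over all genes; DESeq2 1.42.0 and sva 3.50.0 served as alternatives. Log2 CPM used a prior count of 2. To show values per mouse, the fitted batch term was subtracted. Exact tests enumerated 32340 regroupings within batches against Water (smallest p 3.09e-05) and 16170 for Chronic against Acute (smallest p 6.18e-05). The script was tested on simulated data. The members and gene lists were chosen with earlier results of these data known. Named were the 10 genes, genes among those with the smallest p in a list, and the 5 most like *Atp2b1* and *Camk4*. With totals from 20004380 counts per mouse, the spread between mice limits precision for these genes. Labels do not name litters or cages. Some genes of the lists are not reported here and entered no list value.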

Additional observations from a re-analysis of the deposited data

Results flagged for a closer look

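Single mice stood apart from the rest of their group in 3 of 30 groups (10 genes in 3 groups), judged by the gap to the nearest other mouse over the group's range; chance gives about 1 in 20. *Camk4* was 33.7 CPM in Chronic mouse 1, with the next Chronic mouse at 40.3. *Atp2b4* was 667 CPM in Water mouse 43, with the next Water mouse at 587. *Camkk2* was 112 CPM in Acute mouse 33, with the next Acute mouse at 134. The interaction test of batch and drinking called none of the 10 genes.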

How the results depend on the processing

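In Chronic against Water, DESeq2 adjusted p over 8696 of 16263 genes, and over 8396 of 16293 after ComBat-seq, whereas edgeR adjusted over all 16266. The cause of the moves in calls was not tested. The number of the 10 genes called moved from 0 to 2 with DESeq2 and to 3 with ComBat-seq followed by DESeq2. It stayed at 0 with RLE or upper quartile normalization, no filter, a mean of at least 100 counts, each batch alone, only the groups compared, GC content and length offsets, 4 marker covariates (chosen after seeing the data) and without any 1 mouse; so it did in the other comparisons under every setting. GC and length offsets brought *Atp2b1* from -0.21 to -0.14 in Chronic and from -0.10 to -0.05 in Acute mice (-0.04 with the replicate block), *Camk1d* in Chronic mice from -0.09 to -0.04, *Atp2b4* in Acute mice from -0.08 to -0.02, and *Atp2a2* from -0.05 to -0.02 in Chronic and from 0.02 to 0.04 in Acute mice. No sign turned for *Atp2b1* or *Camk4*, nor for *Camk2g* against Water. In Acute mice *Atp2b2* became -0.0017 with DESeq2 and with RLE, -0.011 with ComBat-seq, -0.038 in the second batch and -0.00047 at a mean of 100 counts. *Camk2b* became -0.00021 with DESeq2 and RLE, -0.0024 with ComBat-seq, -0.0048 in the second batch, -0.0036 with the offsets and -0.0022 with offsets and the replicate block, where *Camk1d* became 0.0099. With striatum, choroid plexus, oligodendrocyte and central amygdala markers as covariates, Acute *Atp2b2* became -0.029, -0.0047, -0.032 and -0.045, and *Camk2b* -0.012, -0.0019, -0.0049 and -0.0033. In Chronic mice *Atp2b3* became 0.024 in the first batch, and *Atp2b4* 0.0043 with the offsets and 0.0054 with the block added. Between Chronic and Acute mice *Atp2b3* became -0.056 in the second batch, *Camk2g* 0.00046 with ComBat-seq and 0.040 in the first batch, and *Camkk2* -0.0013 with the offsets; with the striatum covariate *Atp2b2* became 0.0016, *Atp2b3* -0.0043, *Atp2b4* -0.0061 and *Camk2b* 0.0089, and with central amygdala markers *Atp2b4* became -0.029 and *Camkk2* -0.010. Without 1 mouse each, Acute *Atp2b2* ran from -0.041 to 0.029, *Camk2b* from -0.018 to 0.020 and *Atp2a2* from -2.89e-05 to 0.029, and *Camk2g* between Chronic and Acute from -0.022 to 0.0075 and *Camkk2* from -0.025 (without Acute mouse 33) to 0.026. Without 1 mouse each, the number of genes at an exact permutation p under 0.05 ran from 1 to 3 in Acute and 3 to 4 in Chronic. It ran from 1 to 3 in Chronic against Acute. With all mice, 9.57%, 9.36% and 4.86% of all genes had such a p in these comparisons in turn. *Atp2b1*, *Camk4* and *Camk2g* in Chronic and *Camk2g* in Acute stayed under 0.05 in all 19, whereas *Camk4* in Acute did in 8 of 19. Between Chronic and Acute mice *Atp2a2* stayed under 0.05 in all 18 and *Atp2b1* in 8 of 18. Of the 5 genes most like *Camk4*, 1 remained with group means removed. A replicate block on the second batch's numbers called 0 of the 10 genes in each comparison. Mice with the same number had a median correlation of -0.069 (5 of 16 over 0.1), against 0.041 for other numbers. Mice that share a number were thus not more alike by this median. Correlations of this kind cannot show whether the numbers stand for a shared litter or cage.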
